A study of Mus musculus with 12 samples.

Results

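The RNA levels of 8 genes of the intrinsic cell death machinery were followed in the mouse pallium (the future cerebral cortex and its dorsal neighbours) at stage E13.5. The genes were Apaf1, Cycs and Casp9 of the apoptosome, the executioner caspase gene Casp6, Pidd1 and Casp2 of the PIDDosome, and the p53-induced genes Aen and Perp. They were taken by symbol from tables that list 54735 gene symbols, and all 8 were found above 0 in all 12 libraries. Each library held total RNA from the dorsal telencephalon of an E13.5 embryo of the strain C57/Bl6, and 4 embryos were profiled per genotype. Control embryos were Rnu11wt/flx::Trp53wt/wt::Emx1-Cre+, so they carried 1 floxed Rnu11 allele together with the recombinase. Embryos termed cKO were Rnu11flx/flx::Trp53wt/wt::Emx1-Cre+ and carried 2 floxed alleles of Rnu11, whose product U11 is a small nuclear RNA used to recognise the rare minor introns. Embryos termed dKO were Rnu11flx/flx::Trp53flx/flx::Emx1-Cre+ and in addition carried 2 floxed alleles of Trp53, the gene for p53. All 12 embryos carried Emx1-Cre, which recombines floxed alleles in pallial progenitors and their descendants, so microglia, vessels and blood in the same tissue keep their alleles, and no group lacks the recombinase. The series title states that the study asked whether loss of p53 relieves the microcephaly that follows impaired minor intron splicing.

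In the intrinsic death pathway, cytochrome c (Cycs) leaves the mitochondria and binds APAF1, which assembles into the apoptosome and activates the initiator caspase-9 (Casp9), which in turn activates executioner caspases. The PIDDosome is another such platform, in which PIDD1 and the adaptor RAIDD (Cradd) activate caspase-2 (Casp2), an initiator caspase known to cut MDM2 in cells with extra centrosomes. The transcription factor p53 is known to raise the transcription of Apaf1, Pidd1, Aen, which encodes an apoptosis-enhancing nuclease, and Perp, which encodes a membrane protein of desmosomes that is also tied to p53-dependent death. In the developing cortex, apoptosis removes progenitors and newborn neurons, and loss of apoptosome genes in mice is known to cause an excess of neural tissue.

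The sequences around the transcription start are shown for Aen, Pidd1 and Apaf1 because these were the 3 genes, of the 6 that passed a filter on low values, that were higher in cKO and lower in dKO under every scaling of the libraries described below. They come from the RefSeq promoter table of build GRCm38.p6, span 300 bases around an annotated start, and are written 5′ to 3′ on the strand of the gene. Aen has 2 annotated starts, and the window of the first, chr7:78895677-78895976 on the plus strand, is printed. Pidd1 lies on the minus strand with its window at chr7:141443976-141444275, and Apaf1 lies on the minus strand with its window at chr10:91082694-91082993. Capitals mark the match to the p53 response element in Aen.
Aen: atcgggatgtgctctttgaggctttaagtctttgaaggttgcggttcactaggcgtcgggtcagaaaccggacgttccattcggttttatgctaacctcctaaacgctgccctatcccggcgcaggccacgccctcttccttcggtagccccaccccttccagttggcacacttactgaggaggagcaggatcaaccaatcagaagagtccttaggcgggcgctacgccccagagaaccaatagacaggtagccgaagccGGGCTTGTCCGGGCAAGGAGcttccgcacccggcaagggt
Pidd1: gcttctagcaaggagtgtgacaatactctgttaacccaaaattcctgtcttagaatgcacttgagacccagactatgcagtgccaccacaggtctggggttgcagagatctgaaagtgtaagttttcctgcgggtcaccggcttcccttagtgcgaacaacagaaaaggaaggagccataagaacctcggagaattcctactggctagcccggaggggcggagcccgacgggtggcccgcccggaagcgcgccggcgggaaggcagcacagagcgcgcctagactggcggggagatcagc
Apaf1: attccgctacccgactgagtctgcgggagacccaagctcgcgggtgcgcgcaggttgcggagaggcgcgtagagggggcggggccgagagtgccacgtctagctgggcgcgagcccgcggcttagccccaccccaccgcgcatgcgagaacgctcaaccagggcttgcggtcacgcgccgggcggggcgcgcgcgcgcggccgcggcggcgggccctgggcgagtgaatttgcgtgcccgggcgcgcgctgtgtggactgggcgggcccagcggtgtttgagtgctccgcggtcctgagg

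The motif searched was the p53 response element in its usual form of 2 decamers with a gap of 0 or 1 base, allowing at most 3 mismatches in all with the core C and G of each decamer kept. The decamer is its own reverse complement, so 1 search covers both strands. The match in Aen, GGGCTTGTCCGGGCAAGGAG, lies at chr7:78895937-78895956. It starts 10 bases after the first annotated start and 121 bases before the second. Its first decamer matched without a mismatch and its second had 3 mismatches. Of the 7 genes with an entry in the table (Apaf1, Cycs, Casp9, Casp6, Pidd1, Casp2 and Aen), Aen alone held a match to the element or to a single decamer without mismatch. Among all 32851 promoter windows of the same length, 2.82% held the element and 8.36% held the single decamer. A match is a description of letters and was not tested for binding, and the windows of Pidd1 and Apaf1 without one say nothing of elements elsewhere in those genes. The GC content was 58% in the printed Aen window, 57.7% in that of Pidd1 and 74.7% in that of Apaf1.

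The values are TPM, transcript abundance divided by gene length and scaled so that each library sums to 1000000, so levels can be set side by side between genes. Sequencing depth cannot be read from TPM and is unknown here, so counting intervals are not given. Rnu11 fell to 22.6% of the control mean in cKO and to 25.6% in dKO, with no overlap of embryos (exact two-sided permutation p = 0.0286 each, the smallest that the 70 assignments allow, adjusted 0.0429 over 6 tests). Trp53 averaged 3.82 ± 1.73 TPM over control embryos, 4.24 ± 0.404 over cKO embryos and 1.22 ± 0.252 over dKO embryos (SD, n = 4), and dKO lay below both other groups by the same exact permutation test (p = 0.0286, adjusted 0.0429). Trp53 in cKO and control overlapped (exact permutation p = 0.686), and control embryo 1 stood apart at 6.37 TPM. Without that embryo Trp53 was higher in cKO than in control by 0.40 on the log2(TPM + 1) scale (exact permutation p = 0.0286, the smallest possible). It was the only control embryo not below every cKO embryo, so leaving it out fixed that p in advance and no difference is drawn from it. With all embryos, centring on the median shift of each library turned the Trp53 change to -0.070. A shift ran through the whole library: the median change of the 11764 genes tested was 0.25 on the log2(TPM + 1) scale in cKO against control and -0.26 in dKO against cKO, but -0.0145 in dKO against control. After each library was rescaled to an equal sum of protein-coding genes these medians were 0.12, -0.077 and 0.038 in the same order, and after rescaling by median ratios -0.0038, 0.0087 and 0.0026. Changes are therefore given both as deposited and after scaling. All 8 defining markers of the pallium were above 0 in every group, with sums of 163 to 178 TPM in control, 164 to 189 in cKO and 105 to 157 in dKO.

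In control pallium Cycs stood highest of the 8 genes at 22.3 ± 2.50 TPM (SD, n = 4), above 94.4% of the 20492 protein-coding genes above 0. Casp2 followed at 6.40 ± 0.883, then Apaf1 at 4.22 ± 0.509 and Aen at 3.53 ± 0.353, which overlapped each other. Casp6 at 2.42 ± 0.385, Pidd1 at 1.61 ± 0.375, Casp9 at 0.679 ± 0.200 and Perp at 0.181 ± 0.0426 completed the order, each without overlap with the next. Within the apoptosome, cytochrome c RNA thus stood above Apaf1 RNA and Apaf1 RNA above that of the caspase it activates. Within the PIDDosome, Casp2 RNA stood above Pidd1 RNA. The same order held in dKO. In cKO the order differed. Aen (9.31 ± 0.991 TPM) and Apaf1 (7.92 ± 0.998) stood after Cycs and before Casp2 (6.73 ± 0.640), each overlapping the next, Pidd1 stood above Casp6, and Casp9 and Perp overlapped. Casp9 (mean 0.726 TPM over all libraries) and Perp (0.390) were under the filter of a mean of 1 TPM, so they were tested in a separate fit without the filter on 39624 genes.

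**Figure D1:**
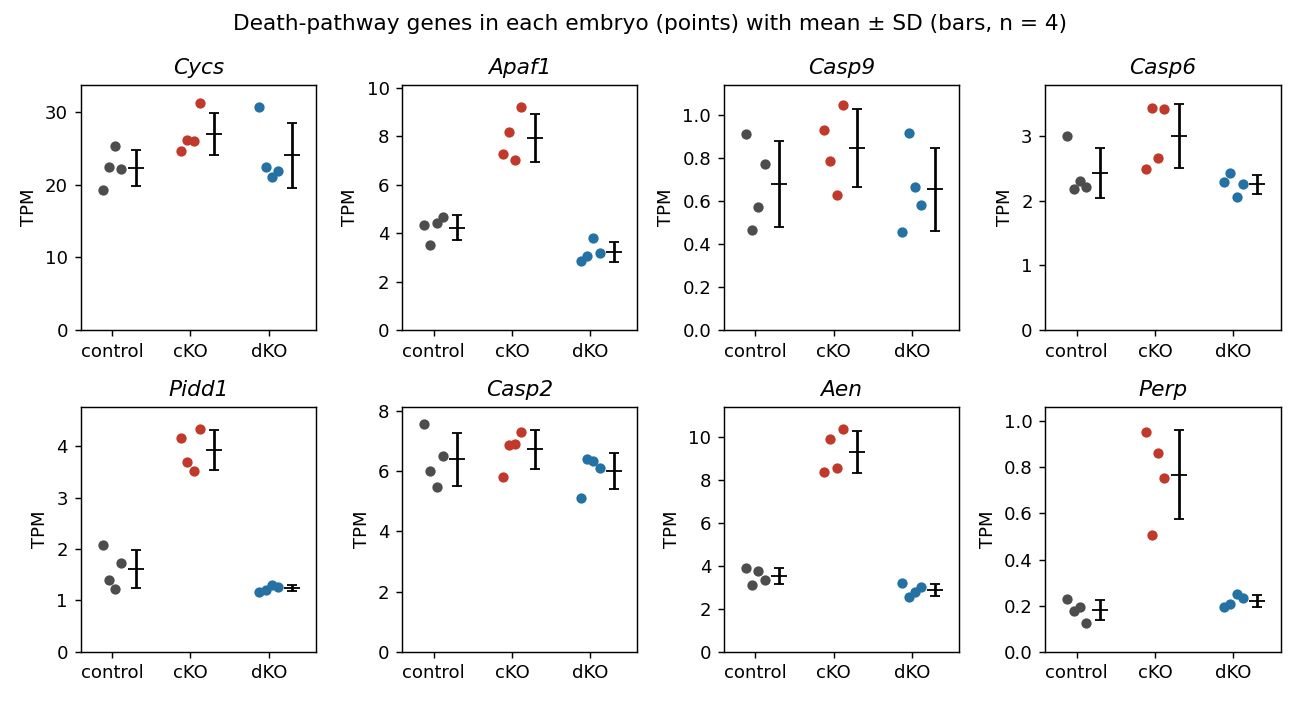
TPM (y axis, linear, each panel on its own scale from 0) of the 8 genes in each embryo of control, cKO and dKO; points are embryos and the offset marks are means with SD (n = 4). The cKO embryos of Aen, Pidd1, Apaf1 and Perp lie above all control and dKO embryos, while the groups overlap between control and cKO in the other 4 genes.

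Apaf1 encodes the scaffold of the apoptosome. Its TPM in embryos 1 to 4 was 4.32, 3.49, 4.41 and 4.66 in control, 7.28, 8.16, 7.02 and 9.23 in the cKO group, and 2.84, 3.05, 3.79 and 3.18 in dKO. Every cKO embryo lay above every control and every dKO embryo, whereas control and dKO overlapped. In limma, Apaf1 was higher in cKO than in control by 0.77 ± 0.104 on the log2(TPM + 1) scale (SE, adjusted p = 0.000517), and lower in dKO than in cKO by 1.08 ± 0.104 (log2 change -1.08, adjusted p = 5.64e-05). After median-ratio rescaling the changes were 0.51 (limma adjusted p = 0.0017) and -0.80 (adjusted p = 0.000126). In dKO the Apaf1 mean was 76.1% of the control mean. That difference was not called as deposited (log2 change -0.31, limma adjusted p = 0.114) or after protein-coding rescaling (-0.26, adjusted p = 0.0888), and was called lower after centring on the median shift (-0.29, adjusted p = 0.0394) and after median-ratio rescaling (-0.29, adjusted p = 0.0348).

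Cytochrome c, which triggers the apoptosome, and caspase-9, which the apoptosome activates, did not pass the test in any comparison. The TPM of Cycs was 19.2, 22.4, 25.4 and 22.2 in control, 24.6, 26.2, 26.0 and 31.2 in the cKO group, and 30.7, 22.4, 21.1 and 21.9 in dKO. The groups overlapped, and dKO embryo 1 stood apart from the other dKO embryos. The Cycs change in cKO against control was 0.27 ± 0.127 (SE, limma adjusted p = 0.114) as deposited, close to the median shift of all genes, and -0.030 ± 0.129 after median-ratio rescaling. For Casp9 the TPM was 0.910, 0.463, 0.572 and 0.769 in control, 0.929, 0.783, 0.627 and 1.05 in the cKO group, and 0.456, 0.913, 0.666 and 0.579 in dKO. The 3 groups of Casp9 overlapped, with a change of 0.14 ± 0.113 in cKO against control (SE, limma adjusted p = 0.452 without the filter) and 0.0088 ± 0.102 after median-ratio rescaling. A missed threshold does not show equal levels. Cycs has processed pseudogenes, of which Cycs-ps2 and Cycs-ps3 were listed at 0 in all 12 libraries, and the authors' treatment of shared reads is not given in the sources used here, so its level is uncertain to that extent.

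Casp6 encodes an executioner caspase that acts downstream of the initiators and cuts nuclear lamins. Its TPM was 2.99, 2.17, 2.31 and 2.21 in control, 2.49, 3.44, 2.66 and 3.42 in the cKO group, and 2.28, 2.42, 2.06 and 2.25 in dKO. Control embryo 1 was high and lay within the cKO range, the other 3 control embryos lay below it, and every dKO embryo lay below every cKO embryo. Casp6 was lower in dKO than in cKO as deposited by 0.29 ± 0.104 on the log2 scale (log2 change -0.29, limma adjusted p = 0.042), little more than the median shift of -0.26. The call was lost after protein-coding rescaling (-0.13, limma adjusted p = 0.325) and after median-ratio rescaling (-0.049, adjusted p = 0.737). It was also lost when any one of control embryos 3 or 4, cKO embryos 2 or 4 or any dKO embryo was left out (limma adjusted p up to 0.123). Against control, cKO was 0.22 ± 0.104 higher (limma adjusted p = 0.105) as deposited and -0.0019 ± 0.0773 apart after median-ratio rescaling, and leaving out control embryo 1 made the deposited difference a call (0.30, adjusted p = 0.0391).

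Pidd1 encodes the scaffold of the PIDDosome. Its TPM was 2.07, 1.40, 1.22 and 1.73 in control, 4.16, 3.69, 3.52 and 4.34 in the cKO group, and 1.16, 1.21, 1.30 and 1.26 in dKO. The lowest cKO embryo stood above the highest control embryo, and the dKO embryos lay close together within or below the control range. Pidd1 rose in cKO against control to 2.44 times the mean TPM, a log2(TPM + 1) change of 0.93 ± 0.102 (SE, limma adjusted p = 0.000131). After median-ratio rescaling the rise was 0.70 (limma adjusted p = 0.000632). In dKO Pidd1 was at 31.4% of the cKO mean (log2 change -1.14 ± 0.102, limma adjusted p = 2.98e-05) and at 76.7% of the control mean, a difference that was not called (-0.21, adjusted p = 0.27).

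Casp2, the caspase that PIDD1 recruits, did not pass the test in any comparison. Its TPM was 7.57, 6.02, 5.50 and 6.50 in control, 5.82, 6.89, 6.90 and 7.32 in the cKO group, and 5.13, 6.42, 6.36 and 6.12 in dKO. All 3 groups overlapped. The change in cKO against control was 0.067 ± 0.102 as deposited (SE, limma adjusted p = 0.602), which is below the median gene, and it turned to -0.068 ± 0.0984 after protein-coding rescaling and to -0.20 ± 0.0832 after median-ratio rescaling (adjusted p = 0.178). Its direction in cKO against control and in dKO against cKO thus did not hold across scalings. In dKO against control the change was below 0 under each scaling but not called (-0.075 ± 0.102 as deposited, limma adjusted p = 0.747).

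Aen showed the largest change among the 6 genes that passed the filter, in cKO against control and in dKO against cKO. It encodes an exonuclease that enhances apoptosis. Its TPM was 3.89, 3.12, 3.75 and 3.35 in control, 8.40, 9.92, 8.54 and 10.4 in the cKO group, and 3.18, 2.57, 2.76 and 3.01 in dKO. The cKO embryos stood far above both other groups, and 1 dKO embryo reached into the control range. Aen rose 2.64-fold in mean TPM in cKO against control (log2 change 1.19 ± 0.0899, SE, limma adjusted p = 7.25e-06), and 107 of the 11764 genes had a larger increase. In dKO it was at 30.9% of the cKO mean (log2 change -1.41 ± 0.0899, limma adjusted p = 2.45e-06), and 81 genes had a larger decrease. After median-ratio rescaling these changes were 0.92 (limma adjusted p = 1.34e-05) and -1.13 (adjusted p = 3.62e-06). Against control, dKO was at 81.6% of the mean, which was not called as deposited (log2 change -0.22, limma adjusted p = 0.188) or after median-ratio rescaling (-0.21, adjusted p = 0.0941), although the embryos no longer overlapped after that rescaling.

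Perp had the lowest level of the 8 genes and the largest ratio of means. Its TPM was 0.228, 0.177, 0.194 and 0.126 in control, 0.953, 0.505, 0.861 and 0.755 in the cKO group, and 0.193, 0.205, 0.250 and 0.234 in dKO. The cKO embryos lay above all others, with cKO embryo 2 nearest to them, and control and dKO overlapped. The cKO mean was 4.23 times the control mean, and in the fit without the filter the log2(TPM + 1) change was 0.58 ± 0.0799 (SE, limma adjusted p = 0.00196), which understates the change of so low a gene. In dKO Perp was at 28.7% of the cKO mean (log2 change -0.53 ± 0.0799, limma adjusted p = 0.00261). Both calls held after protein-coding rescaling (0.52, limma adjusted p = 0.00837, and -0.46, adjusted p = 0.0204) and after median-ratio rescaling (0.48, adjusted p = 0.0145, and -0.42, adjusted p = 0.0318). Over all genes of these fits, 3.41% and 1.5% were called higher in cKO against control after the protein-coding and the median-ratio rescaling, and 3.11% and 1.67% lower in dKO against cKO. The summed TPM of 8 surface epithelium markers, cells in which Perp is abundant, was 1.10 to 1.83 in control, 1.43 to 3.46 in cKO and 1.37 to 4.36 in dKO, with no marker at 0 in a group. Their part in the change of Perp was not tested.

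Counted together, 3 of the 6 genes that passed the filter were called higher in cKO than in control and none lower, where 34.3% of all genes tested were called higher and 1.09% lower. After protein-coding rescaling the same count of 3 of 6 (Aen, Apaf1 and Pidd1) stood beside 11.3% of all genes, and after median-ratio rescaling beside 3.96%. In the fit without the filter, which adds Perp, 4 of 8 were called higher beside 11% of all genes as deposited, and Perp alone of the 2 added genes was called. In dKO against cKO, 4 of 6 (Aen, Apaf1, Pidd1 and Casp6) were called lower beside 38.8% of all genes as deposited, and 3 of 6 after protein-coding rescaling beside 8.28% and after median-ratio rescaling beside 4.22%. Without the filter 4 of 8 were called lower (Aen, Apaf1, Pidd1 and Perp) beside 14.5% of all genes. In dKO against control limma called none of the 6 as deposited, where 1.79% of all genes were called higher and 3.4% lower, and 1 (Apaf1, lower) after median-ratio rescaling beside 5.05% of all genes and after centring beside 4.69%. After protein-coding rescaling none of the 6 was called lower there, beside 3.74% of all genes. Neither Casp9 nor Perp was called in that comparison in the fit without the filter, where 0.681% of all genes were called higher and 0.669% lower. At an unadjusted p under 0.05 the limma counts of the 6 genes were 3 higher and 0 lower in cKO against control, where 46.8% of all genes were higher and 1.56% lower. They were 0 higher and 2 lower (Apaf1 and Aen) in dKO against control, where the shares were 8.29% and 11.8%, and 0 higher and 4 lower in dKO against cKO, where they were 1.05% and 49.9%. Embryos of the 2 groups did not overlap for 3 of the 6 genes in cKO against control, all higher, where 32.7% of all genes tested were higher without overlap, and for 4 of the 6 in dKO against cKO, all lower, where the share was 32.8%. Any pair of these comparisons shares a group of embryos, so their counts are not independent.

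**Figure D2:**
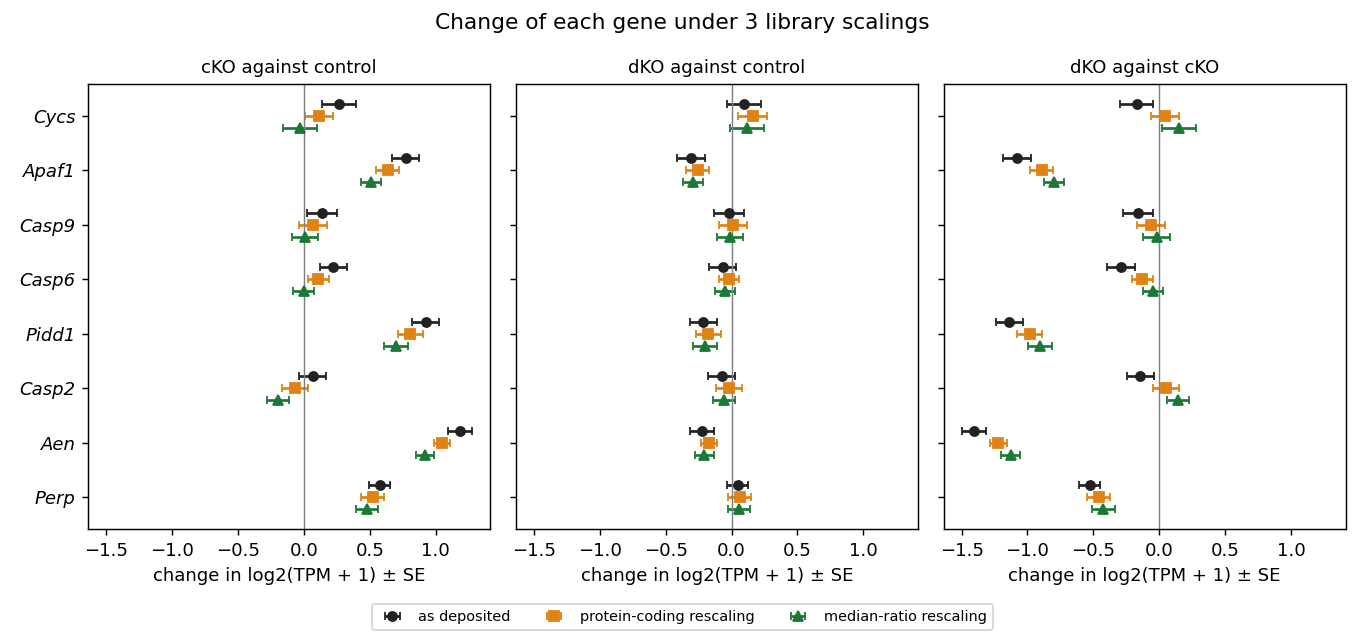
Change in log2(TPM + 1) with SE (x axis) of the 8 genes (y axis) in the 3 comparisons from limma, as deposited and after 2 scalings of the libraries; Casp9 and Perp come from the fit without a filter. Aen, Pidd1, Apaf1 and Perp stay on the same side of 0 under each scaling in cKO against control and in dKO against cKO, while Casp2 and Cycs, and in cKO against control Casp6, cross 0.

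Ratios between partner genes within a library do not depend on how the library is scaled. The ratio of Pidd1 to Casp2 in embryos 1 to 4 was 0.274, 0.233, 0.223 and 0.266 in control, 0.715, 0.535, 0.510 and 0.593 in the cKO group, and 0.227, 0.188, 0.204 and 0.206 in dKO. Scaffold RNA thus rose relative to the RNA of its caspase 2.35-fold in cKO against control (log2 difference 1.23, exact two-sided permutation p = 0.0286, adjusted 0.0429 over 9 ratio tests). In dKO the ratio fell to 0.353 of its cKO value (log2 difference -1.50, exact permutation p = 0.0286, adjusted 0.0429). The ratio of Apaf1 to Cycs was 0.225, 0.156, 0.174 and 0.210 in control, 0.296, 0.312, 0.270 and 0.296 in the cKO group, and 0.0923, 0.136, 0.180 and 0.145 in dKO. It rose 1.55-fold in cKO and fell to 0.459 of the cKO value in dKO (log2 differences 0.63 and -1.12, exact permutation p = 0.0286 each, adjusted 0.0429). The ratio of Apaf1 to Casp9 was 4.75, 7.53, 7.71 and 6.06 in control, 7.84, 10.4, 11.2 and 8.83 in the cKO group, and 6.22, 3.34, 5.70 and 5.49 in dKO. It rose 1.48-fold in cKO (log2 difference 0.57) and fell to 0.532 of the cKO value in dKO (log2 difference -0.91, exact permutation p = 0.0286 each, adjusted 0.0429), but the rise lost its exact p under 0.05 when control embryo 1 or 4 or cKO embryo 2, 3 or 4 was left out (permutation p from 0.0571 to 0.114, log2 differences from 0.43 to 0.60). Between dKO and control none of the 3 ratios passed the exact permutation test (p = 0.0571 for Pidd1 to Casp2, 0.0857 for Apaf1 to Cycs and 0.229 for Apaf1 to Casp9), although each mean was lower in dKO.

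**Figure D3:**
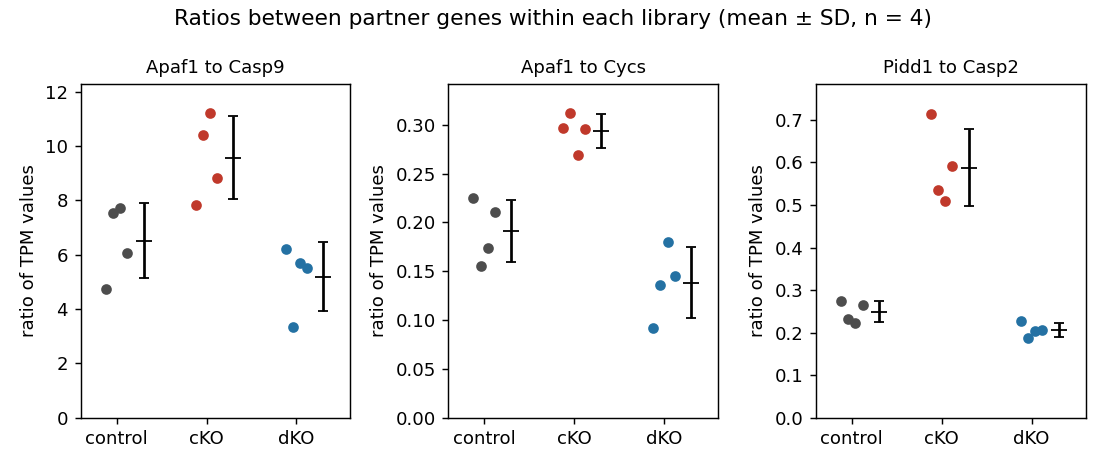
Ratio of TPM values within each library (y axis, linear from 0) for Apaf1 to Casp9, Apaf1 to Cycs and Pidd1 to Casp2 in control, cKO and dKO; points are embryos and the offset marks are means with SD (n = 4). The cKO embryos lie above all control and dKO embryos in each ratio, from 0.510 to 0.715 for Pidd1 to Casp2 against 0.188 to 0.274 in the other groups.

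The summed level of 10 microglia and macrophage markers moved with the same contrast. It was 13.1 to 16.1 TPM in control, 51.5 to 74.2 in cKO and 15.5 to 21.3 in dKO, with no marker at 0 in any group. The 7 endothelium and pericyte markers summed to 9.98 to 12.8 in control, 19.6 to 25.6 in cKO and 12.2 to 20.2 in dKO. The 6 meninges and mesenchyme markers summed to 13.7 to 23.3 in control, 24.2 to 29.4 in cKO and 20.5 to 29.0 in dKO, and the 8 ventral telencephalon markers to 1.73 to 2.45, 3.43 to 5.29 and 1.68 to 3.73. The part of these cells in the changes of Apaf1, Pidd1, Aen and Perp was not tested. The 8 neuron markers summed to 218 to 241 TPM in control, 287 to 350 in cKO and 148 to 232 in dKO, and the 8 radial glia markers to 253 to 280, 298 to 351 and 274 to 280. The radial glia markers did not move together. From control to cKO the means of Fabp7 (109 to 149) and Vim (85.8 to 103) were higher, as were Nes and Slc1a3. Those of Hes5 (8.17 to 5.52) and Sox2 (10.9 to 9.36) were lower, and Pax6 and Hes1 were slightly lower. In bulk tissue, fewer cells of a type and less RNA per cell cannot be told apart.

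The profiles of Apaf1, Pidd1 and Aen over the 12 libraries were also compared. These 3 genes were picked for their calls in the same comparisons, so some closeness follows from that choice. Other pairs were about as close, such as Cycs and Casp6 at 0.208 on the measure below. The root mean square difference of their log2(TPM + 1) profiles, each centred on its own mean, was 0.149 between Apaf1 and Pidd1, 0.186 between Pidd1 and Aen and 0.214 between Apaf1 and Aen, against 0.420 between Apaf1 and Casp2, with Casp6 and Casp2 at 0.130. Among all genes tested, Apaf1 was nearest to Mt1 (0.102), which encodes a metallothionein, and Slc19a2 (0.107), which encodes a thiamine transporter. Pidd1 was nearest to Psrc1 (0.102), which encodes a spindle protein, and Slc19a2 (0.133). Aen was nearest to Cpt1c (0.112), a neuronal carnitine palmitoyltransferase gene, and the long noncoding RNA gene Pvt1 (0.130). Psrc1 stood at 7.20 ± 1.24, 15.3 ± 1.99 and 5.69 ± 0.282 TPM in control, cKO and dKO (SD, n = 4 each), and Cpt1c at 3.03 ± 0.175, 7.81 ± 1.15 and 2.33 ± 0.135. These distances depend on the size of the changes on the log2(TPM + 1) scale and not on shape alone, and they share the library shift. Genes with little change therefore also lie close to one another. Slc19a2 (0.624, 1.94 and 0.508 TPM in control, cKO and dKO) and Pvt1 (0.518, 2.46 and 0.507) passed the filter only through cKO. The pseudocount of 1 shrinks the changes of genes this low.

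Other genes of the pathway were taken from lists written with these results known. Casp8, the gene for the initiator caspase of death receptors, was higher in cKO than in control as deposited (0.49 on the log2 scale, limma adjusted p = 0.0095), with 0.826 ± 0.144 TPM in control embryos, 1.57 ± 0.271 in cKO embryos and 0.812 ± 0.232 in dKO embryos (SD, n = 4). The call was lost after protein-coding rescaling (0.40, limma adjusted p = 0.0535) and after centring on the median shift (0.24, adjusted p = 0.31). The control and dKO means of Casp8 were both under 1 TPM, so it passed the filter only through its level in cKO. Cflar, which encodes the caspase-8 inhibitor FLIP, was higher in cKO as deposited (0.72, limma adjusted p = 0.0006), after protein-coding rescaling and after centring (0.47, adjusted p = 0.00946). Cflar was also higher in dKO than in control (0.49, limma adjusted p = 0.014), and that call held under both scalings. After centring, 3.72% of all genes were called higher in cKO against control and 3.83% lower in dKO against cKO.

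The inhibitors of apoptosis proteins, which bind caspases, and their antagonists gave 6 tested genes of 14 found. In cKO against control 1 was called higher as deposited beside 34.3% of all genes (Birc6, 0.43, limma adjusted p = 0.00771). After protein-coding rescaling none was called, beside 11.3% of all genes (1 at an unadjusted p under 0.05 in limma). The median change of these 6 genes as deposited was 0.21, below the 0.25 of all genes. Xiap, the strongest known inhibitor of caspase-9 and the executioners, was 0.19 in cKO against control (limma adjusted p = 0.0782), Birc5 was 0.23 (adjusted p = 0.0793) and Diablo, which encodes the antagonist Smac, was 0.21 (adjusted p = 0.127), and none of these 3 kept its sign under every scaling. Xiap was lower in dKO than in cKO as deposited (-0.48, limma adjusted p = 0.00122) and after protein-coding rescaling (-0.30, adjusted p = 0.0383), but not after centring. Of 10 apoptosome modulators, 6 were tested and none was called in cKO against control as deposited, against 34.3% of all genes called higher. At an unadjusted p under 0.05 in limma 2 were higher, where 46.8% of all genes were. Apip, which encodes an inhibitor of APAF1 that also acts in methionine salvage, was lower in dKO than in control (-0.33, limma adjusted p = 0.0317), also after protein-coding rescaling and after centring. That call was lost when any 1 control embryo or dKO embryo 2, 3 or 4 was left out (limma adjusted p up to 0.086).

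Among 8 partners of the PIDDosome, 7 were tested, and Mdm2, whose product is cut by caspase-2 and is itself induced by p53, changed most. Mdm2 averaged 14.8 ± 0.443 TPM over control embryos, 27.9 ± 1.52 over cKO embryos and 12.4 ± 2.03 over dKO embryos (SD, n = 4; log2 changes 0.87 and, in dKO against cKO, -1.12, limma adjusted p = 0.000147 and 2.41e-05). As deposited, 3 of the 7 were called higher in cKO (Mdm2, Bid and Ripk1) beside 34.3% of all genes, and after protein-coding rescaling Mdm2 alone beside 11.3%. Ripk1, a kinase gene of the same death-domain complexes, lost its call (0.34, limma adjusted p = 0.0178) without cKO embryo 4 (adjusted p = 0.0542). Cradd, the adaptor between PIDD1 and caspase-2, was 0.26 in cKO against control (limma adjusted p = 0.0886), was 0.15 after protein-coding rescaling (adjusted p = 0.359), and was called without cKO embryo 3 (0.36, adjusted p = 0.0178). Ankrd26, which encodes the centriolar anchor of PIDD1, was lower in dKO than in control (-0.45, limma adjusted p = 0.0248), also after protein-coding rescaling (-0.40, adjusted p = 0.0168). Leaving out control embryo 1, 2 or 3 or dKO embryo 1 or 2 ended the Ankrd26 call (limma adjusted p up to 0.0666).

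Caspase substrates and death nucleases gave 13 tested genes of 15. In cKO against control 7 were called higher as deposited beside 34.3% of all genes, 3 after protein-coding rescaling (Dffb, Gsn and Lmna) beside 11.3%, and none after centring beside 3.72% (4 higher and 1 lower at an unadjusted p under 0.05 in limma), with a median change of 0.27 beside 0.25 for all genes. Dffb encodes the caspase-activated DNase, and Gsn and Sptan1 encode gelsolin and a spectrin that caspases cut. In dKO against cKO 9 were called lower as deposited beside 38.8% of all genes and 2 after protein-coding rescaling beside 8.28%.

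Of 17 other p53-induced death effectors 11 were tested, with a median change in cKO against control of 0.72 beside 0.25 for all genes. As deposited 9 were called higher in cKO beside 34.3% of all genes, and 7 were called after protein-coding rescaling beside 11.3% and after centring beside 3.72%. In dKO against cKO 8 were called lower beside 38.8% of all genes, 7 after protein-coding rescaling beside 8.28% and 7 after centring beside 3.83%. The most changed were Eda2r, a receptor gene of the tumour necrosis factor family (2.78, limma adjusted p = 6.76e-09, and -3.04 in dKO against cKO, adjusted p = 2.39e-09), and Phlda3, which encodes an inhibitor of AKT (1.58, adjusted p = 1.14e-05, and -1.65, adjusted p = 9.26e-06). The increases of Aen, Pidd1 and Apaf1 were smaller than these. The means of Eda2r were 0.835 TPM in control and 0.533 in dKO, and those of Phlda3 0.502 and 0.425. Both genes thus passed the filter only through their levels in cKO, and both are part of the counts and the median of this list. Of 10 desmosome and adhesion partners of Perp, 3 were tested, and 2 (Tjp1 and Pkp4) were called higher in cKO as deposited beside 34.3% of all genes. None was called after protein-coding rescaling beside 11.3% of all genes or after centring beside 3.72%. At an unadjusted p under 0.05 in limma 1 and 0 were higher, in the same order. The unadjusted shares of all genes after scaling are not given.

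**Figure D4:**
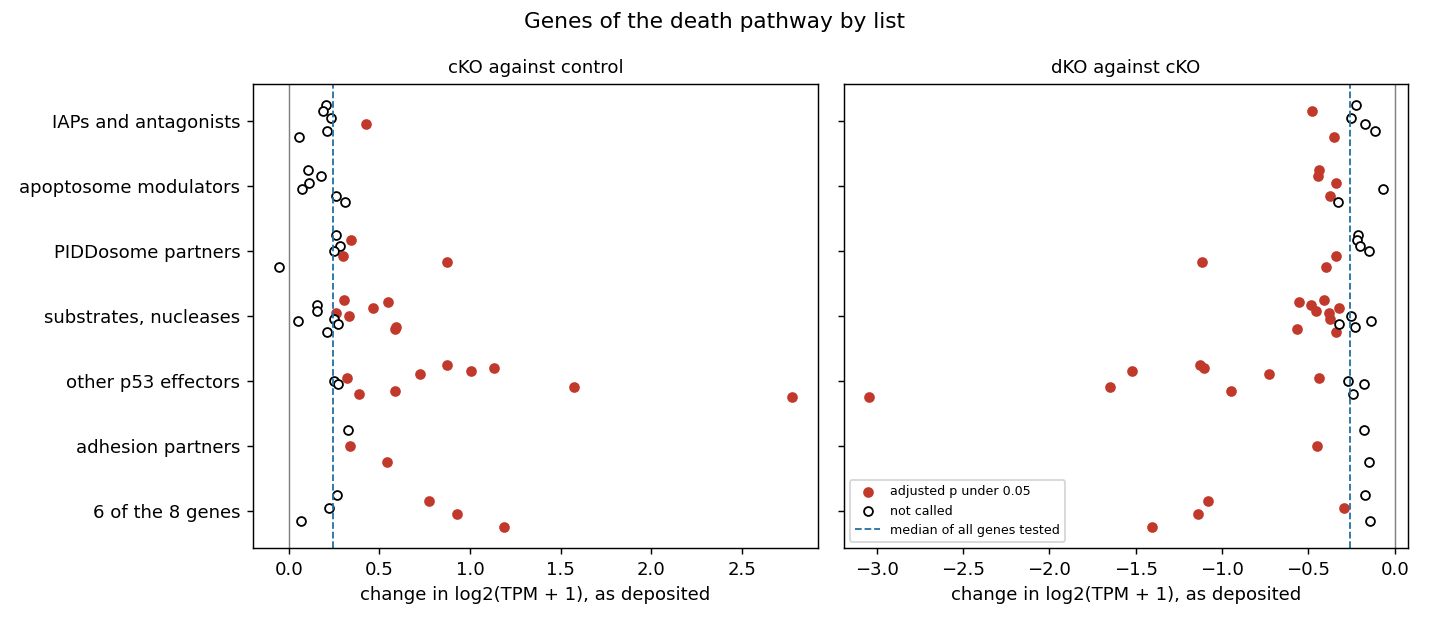
Change in log2(TPM + 1) as deposited (x axis) in cKO against control and in dKO against cKO for the tested genes of 6 pathway lists and for 6 of the 8 genes (y axis); points are genes, filled where the limma adjusted p is under 0.05, and the dashed line is the median of all genes tested. The other p53-induced death effectors reach from near the dashed line to 2.78 and -3.04, while most substrates and partners lie close to it.

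The genes occupy separate loci in build GRCm38 (GENCODE M21). Aen spans chr7:78895854-78911209 and Pidd1 chr7:141438113-141444025 on the same chromosome, and Apaf1 (chr10:90989311-91082770) and Perp (chr10:18845020-18857073) share another chromosome. Cycs (chr6:50562563-50566538) and Casp2 (chr6:42264985-42282508) lie together on another, with Casp9 at chr4:141793612-141815976 and Casp6 at chr3:129901425-129914103. All 8 are protein-coding, and the TPM refer to whole genes without resolving exons or isoforms. Exons of Casp9 overlap those of Cela2a and Ctrc on the opposite strand, which were at a mean of 0.0068 and 0 TPM, and the overlapping noncoding genes Gm25390 in Apaf1 and Gm25108 in Casp2 were listed at 0, so little signal of these neighbours was present in these libraries.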

How the data were processed

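Total RNA from the dorsal telencephalon of 12 embryos was sequenced, with stranded libraries on an Illumina NextSeq instrument per the series' design text. The authors deposited a table of TPM for each embryo, without a header; fractional values with a sum of 1000000 gave the unit. HISAT2 and the build mm10 are named in the submitters' processing notes without their role or version. The quantifier, the annotation and the handling of strand and shared reads are not given in the sources used here. Depth is unknown because TPM does not keep it.

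Groups came from the genotype labels and embryo numbers from the titles. Tests used limma 3.58.1 under R 4.3.3 on log2(TPM + 1) (lmFit, eBayes with trend, the 3 groups in 1 fit). The filter kept 11764 genes whose mean over all 12 libraries reached 1 TPM, so a gene could pass through a high level in 1 group. A gene was called at a Benjamini-Hochberg adjusted p under 0.05 over all genes tested. Partner ratios and targeted genes were compared with exact two-sided permutation tests in Python 3.11.15. The 8 genes, the pathway lists and the marker lists were chosen with earlier results of these data known. The genes named are the 8, from each list up to 2 called genes of largest change per comparison and direction with Casp8, Cradd, Xiap, Diablo, Birc5 and other genes fixed by name, and for each gene past the filter that was called in cKO against control the 2 nearest profiles; further genes in counts were named after their values were seen. Of the 54735 symbols, 54183 were found in GENCODE M21, which gave gene types and loci.

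Alternatives were a pseudocount of 0.1, no filter, a minimum mean of 5 TPM, quantile normalization, centring on the median shift of each library, protein-coding rescaling, sample weights, fits of 2 groups, the replicate number as a block, and leaving out each embryo. Median-ratio rescaling and the test of Casp9 and Perp without the filter were chosen after seeing the data. The fit was tested on simulated data. Some listed genes are not reported here.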

Additional observations from a re-analysis of the deposited data

Results flagged for a closer look

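Single embryos stood apart from the other 3 of their group in 6 of the 108 groups of 4 examined, where chance gives about 5.4, so such gaps carry little weight. Cycs in dKO had embryo 1 at 30.7 TPM, with a gap to the nearest embryo of 0.857 of the range. Casp6 in control had embryo 1 at 2.99 TPM (0.837 of the range). Dffb in dKO had embryo 1 at 2.76 TPM (0.966), and Trp53inp1 in dKO had the same embryo low at 3.47 TPM (0.843). Diablo in control had embryo 3 at 22.2 TPM (0.918), and Tjp1 in cKO had embryo 4 at 17.3 TPM (0.935).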

How the results depend on the processing

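The higher levels of Aen, Pidd1 and Apaf1 in cKO against control and their lower levels in dKO against cKO kept direction and call under every alternative in which they were tested (Pidd1 was under the filter of at least 5 TPM), and Perp did so in the fits without a filter. Aen and Apaf1 had control and dKO means under 5 TPM. They passed that stricter filter only through their levels in cKO, so their calls there are not separate support. The number of the 6 genes called lower in dKO against control was 1 instead of 0 with quantile normalization, with centring, with median-ratio rescaling and with sample weights, and was Apaf1 each time. Of all 11764 genes, 567, 552, 594 and 938 were called lower there under these settings, in the same order. In dKO against cKO the count called lower was 2 instead of 4 with a mean of at least 5 TPM, where 4 genes were tested. In that fit 2184 of all 5803 genes were called lower. Casp2 turned in cKO against control to -0.19 with quantile normalization, -0.18 with centring, -0.068 with protein-coding rescaling and -0.20 with median-ratio rescaling, and in dKO against cKO to 0.14, 0.13, 0.051 and 0.14. Cycs turned in dKO against cKO to 0.067, 0.10, 0.043 and 0.15 under the same 4 scalings, and in cKO against control to -0.030 with median-ratio rescaling. Casp6 turned in cKO against control to -0.065 with quantile normalization, -0.026 with centring and -0.0019 with median-ratio rescaling, and it was called with sample weights (0.32, limma adjusted p = 0.0112). Casp9 in dKO against control turned to 0.0086 with protein-coding rescaling. In cKO against control Xiap turned to -0.087 with quantile normalization, -0.064 with centring and -0.067 with median-ratio rescaling, Diablo to -0.018, -0.036 and -0.082, Birc5 to -0.018 with centring and -0.059 with median-ratio rescaling, and Cradd to -0.016 with quantile normalization. Leaving out 1 embryo gave ranges from -0.024 (without dKO embryo 1) to 0.16 for Cycs, from -0.094 to 0.043 for Casp9 (above 0 without control embryo 1 or 4 or dKO embryo 1) and from -0.10 to 0.0091 (without control embryo 1) for Casp6 in dKO against control. It gave 0.43 to 0.66 for the log2 ratio of Apaf1 to Casp9 in cKO against control. For log2 Trp53 in cKO against control it gave 0.063 to 0.40, the highest without control embryo 1. The exact permutation p of 0.0286 there follows from leaving out the only overlapping control embryo. With centring Trp53 turned to -0.070. The cause of these turns was not tested.

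Same-numbered embryos did not deviate together (correlations of deviations from the group means from -0.095 to 0.075), so no pairing by number was detected. The titles do not say how the numbers were given, so a pairing by number is not settled. With the replicate number as a block, limma called 3 of the 6 genes lower in dKO against cKO, beside 3555 of all 11764 genes. Casp6 was not among them (limma adjusted p = 0.0775). In cKO against control 3 of the 6 were called higher, beside 2867 of all 11764 genes. With the block the ratio differences stayed at 0.57 and -0.91 for Apaf1 to Casp9, 0.63 and -1.12 for Apaf1 to Cycs and 1.23 and -1.50 for Pidd1 to Casp2 in cKO against control and dKO against cKO, with an exact permutation p of 0.125, the smallest that 4 pairs allow. Depth is unknown, so the counting error of low genes such as Perp and Casp9 cannot be given.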

Other observations

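Several death genes lay under the filter of a mean of 1 TPM and were not tested; they were chosen after their values were seen. Bbc3 and Pmaip1, which encode the BH3-only proteins PUMA and NOXA, stood at 0.969 to 1.38 and 0.920 to 1.46 TPM in cKO, against 0.206 to 0.434 and 0.0623 to 0.155 in control and 0.110 to 0.512 and 0.175 to 0.450 in dKO. Every cKO embryo was above every other embryo for both genes, as deposited and without rescaling. Among the 11764 genes past the filter, 32.7% were higher without overlap in cKO against control and 32.8% lower in dKO against cKO. The share among genes under the filter is not given. The death receptor genes Fas and Tnfrsf10b stood at means of 0.325 and 0.791 TPM in cKO, 0.0262 and 0.177 in control, and 0.0217 and 0.185 in dKO.

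Casp1 and Casp4, caspase genes of inflammation that myeloid cells express, stood at 0.227 to 0.262 and 0.0441 to 0.141 TPM in cKO, against 0.0577 to 0.0920 and 0.0161 to 0.0453 in control and 0 to 0.162 and 0.0124 to 0.136 in dKO. The summed microglia and macrophage markers were higher in cKO as well (51.5 to 74.2 TPM against 13.1 to 16.1 in control), and their part in these caspase levels was not tested. Casp12 was listed at a mean of 0.0734 TPM in cKO, 0.00242 in control and 0.0254 in dKO, and Casp14 was listed at 0 in all control and cKO libraries.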
